A study of Mus musculus with 2 samples.

Results

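Far intergenic peaks are peaks of open chromatin whose midpoint lay outside every protein-coding gene body and over 100 kb from the nearest protein-coding transcript start (GENCODE M1, mm9). Of 40384 distinct peaks in 2 lists, 1830 met this rule, 637 of 17784 in the vehicle list and 1193 of 22600 in the TGFβ list. A peak that overlapped a peak of the other list by at least 1 bp is called shared, and the others are called vehicle-only or TGFβ-only. These names refer to the calls in the deposited lists, since a site without a call can still have had some signal. Overlapping members of both lists joined into 1398 sites.

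DNaseI-seq was performed in NMuMG cells, a mouse mammary gland epithelial line that answers TGFβ with an epithelial-to-mesenchymal transition (EMT). Both cultures had been kept for 6 h without serum and insulin, and were then given TGFβ1 at 5 ng/ml or its carrier (vehicle) for 2 h. Each condition had 1 deposited peak list, from merged reads, and without replicate lists neither their spread nor a test of TGFβ against vehicle could be had. Intervals given below are 95% intervals (Wilson for shares, exact binomial for ratios, Newcombe for differences between shares) and cover the counting of peaks only, with none of the variation between cultures, digestions or libraries. In a culture of many cells, a site open in more cells and a site more open in each cell cannot be told apart.

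DNaseI cuts DNA where nucleosomes have given way to bound proteins, so its peaks mark promoters, enhancers and insulators. Enhancers can act over long distances, and those of developmental regulators such as Myc and Sox9 are known to lie deep in gene deserts, the long stretches between coding genes. TGFβ signals through receptor kinases to SMAD proteins, which bind CAGAC-type sites and act with other factors, among them AP-1, a dimer of Jun and Fos family proteins that binds TGACTCA.

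The sequences that the motif results turn on are given first, each as the 200 bp around a peak midpoint on the + strand of mm9, 5′ to 3′. Capitals mark exact matches to the AP-1 string (TGACTCA, or TGAGTCA on the other strand) or to the CTCF consensus, and lower case marks all other bases. The first belongs to a TGFβ-only peak at the score ceiling in the desert beside Zfat. The next 3 form a run of TGFβ-only peaks beside Tbl1xr1 in which each peak held 1 AP-1 match. The fifth, beside Gadd45g, held 3 matches, of which a pair stood end to end. The sequences were chosen after their values were seen, to show the matches, and do not stand for their classes. Of the other TGFβ-only peaks of highest score described below, 3 held no AP-1 match.
TGFβ-only, Zfat, chr15:67612330-67612529: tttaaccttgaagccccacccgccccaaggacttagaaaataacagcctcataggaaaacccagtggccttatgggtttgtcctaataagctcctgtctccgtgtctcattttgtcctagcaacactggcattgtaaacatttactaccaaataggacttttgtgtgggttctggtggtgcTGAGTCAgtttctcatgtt
TGFβ-only, Tbl1xr1 a, chr3:21848423-21848622: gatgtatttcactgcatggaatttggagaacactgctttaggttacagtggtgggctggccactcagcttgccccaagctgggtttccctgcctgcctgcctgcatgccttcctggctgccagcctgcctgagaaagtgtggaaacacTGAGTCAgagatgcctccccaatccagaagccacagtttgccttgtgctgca
TGFβ-only, Tbl1xr1 b, chr3:21851970-21852169: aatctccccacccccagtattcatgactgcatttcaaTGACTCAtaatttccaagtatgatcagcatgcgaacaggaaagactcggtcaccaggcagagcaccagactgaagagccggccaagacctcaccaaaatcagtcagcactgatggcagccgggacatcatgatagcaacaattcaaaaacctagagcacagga
TGFβ-only, Tbl1xr1 c, chr3:21861389-21861588: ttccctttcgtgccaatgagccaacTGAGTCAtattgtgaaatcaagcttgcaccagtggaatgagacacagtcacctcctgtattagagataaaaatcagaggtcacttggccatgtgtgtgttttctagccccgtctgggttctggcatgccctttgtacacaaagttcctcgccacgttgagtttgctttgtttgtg
TGFβ-only, Gadd45g, chr13:52065548-52065747: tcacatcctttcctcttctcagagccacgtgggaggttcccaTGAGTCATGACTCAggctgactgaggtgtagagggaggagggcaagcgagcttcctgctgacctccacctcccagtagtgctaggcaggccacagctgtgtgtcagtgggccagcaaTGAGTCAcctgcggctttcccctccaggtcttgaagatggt

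For comparison, the vehicle-only peaks of highest score in the deserts beside Grhl2 and Ets1 held no AP-1 match, and the shared peaks of high score beside Hmga2 and Enc1 held 1 each, while the other 3 of the 5 shared peaks of highest score held none. The last sequence is the vehicle-only peak nearest to the threshold of 100 kb, beside Ralgapa2, which held a CTCF match.
Vehicle-only, Grhl2, chr15:37044148-37044347: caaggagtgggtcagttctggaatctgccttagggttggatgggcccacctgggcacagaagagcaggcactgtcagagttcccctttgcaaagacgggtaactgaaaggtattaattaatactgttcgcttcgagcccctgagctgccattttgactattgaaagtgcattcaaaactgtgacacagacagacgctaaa
Vehicle-only, Ets1, chr9:32747956-32748155: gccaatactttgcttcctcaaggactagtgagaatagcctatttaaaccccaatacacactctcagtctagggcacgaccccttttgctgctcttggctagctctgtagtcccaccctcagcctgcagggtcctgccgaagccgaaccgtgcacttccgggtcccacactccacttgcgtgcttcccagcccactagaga
Shared, Hmga2, chr10:120073184-120073383: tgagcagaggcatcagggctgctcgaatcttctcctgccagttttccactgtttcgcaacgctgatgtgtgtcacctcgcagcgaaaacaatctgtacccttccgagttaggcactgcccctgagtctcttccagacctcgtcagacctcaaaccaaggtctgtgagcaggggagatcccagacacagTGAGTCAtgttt
Shared, Enc1, chr13:98280923-98281122: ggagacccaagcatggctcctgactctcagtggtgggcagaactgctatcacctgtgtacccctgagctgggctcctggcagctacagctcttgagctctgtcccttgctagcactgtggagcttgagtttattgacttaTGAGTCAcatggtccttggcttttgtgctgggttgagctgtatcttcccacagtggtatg
Vehicle-only, Ralgapa2, chr2:146437941-146438140: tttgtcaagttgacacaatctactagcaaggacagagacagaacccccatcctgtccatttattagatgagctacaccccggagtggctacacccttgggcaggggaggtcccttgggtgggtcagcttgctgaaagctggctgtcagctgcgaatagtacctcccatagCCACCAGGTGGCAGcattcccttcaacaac

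TGFβ-only peaks outnumbered vehicle-only peaks far from genes. Of the 1193 far intergenic peaks of the TGFβ list, 764 (64.0%, interval 61.3 to 66.7) had no vehicle counterpart, against 33.7% of all peaks of that list. Of the 637 in the vehicle list, 215 (33.8%, 30.2 to 37.5) had no TGFβ counterpart, against 17.6% of all vehicle peaks. The ratio of TGFβ-only to vehicle-only peaks was 3.55 (3.05 to 4.15), against 2.43 (2.33 to 2.54) over all peaks of both lists. The shared members numbered 422 in the vehicle list and 429 in the TGFβ list, and every one of their counterparts was itself far intergenic.

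The same classes were counted in the other parts of the genome. In intergenic sequence 1 to 100 kb from a coding start, here called near, 48.5% of TGFβ peaks were unmatched, and the ratio of TGFβ-only to vehicle-only peaks was 2.42 (2.26 to 2.598). Inside coding gene bodies 57.1% were unmatched, with a ratio of 2.78 (2.601 to 2.97). Within 1 kb of a coding start 7.55% were unmatched, with a ratio of 1.30. The unmatched share of TGFβ peaks was thus higher far from genes than near them by 15.6 percentage points (12.5 to 18.5) and higher than in gene bodies by 6.94 points (3.90 to 9.90). In the vehicle list the corresponding differences were 5.27 points (1.43 to 9.27) and 0.94 points (-2.95 to 4.99).

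The study's read totals list more mapped reads for the vehicle library than for the TGFβ library, whose list is the longer, and the part of depth in these counts was not tested. The counts also depended on where the longer list was cut. When the TGFβ list was cut to the length of the vehicle list by its own score, which kept scores of 655 and above while the vehicle list kept its scores down to 540, 364 TGFβ-only and 276 vehicle-only far intergenic peaks were counted and the ratio was 1.32 (1.12 to 1.55). At equal length the ratio was 0.978 (0.911 to 1.05) near genes, 1.14 (1.06 to 1.22) in gene bodies, 0.428 (0.377 to 0.485) at coding starts and 0.952 over all peaks. Lists of equal length hold about equal numbers of unmatched peaks overall by construction, and the far intergenic ratio was the highest of these 4 regions under both settings.

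The shares were also read by distance. The unmatched share of TGFβ peaks was 44.3% at 1 to 10 kb from a coding start, 48.8% at 10 to 50 kb and 52.7% (49.9 to 55.6) at 50 to 100 kb. It was 64.5% (60.9 to 67.9) at 100 to 200 kb, 61.8% (56.8 to 66.5) at 200 to 500 kb and 67.6% (56.3 to 77.1) at 500 to 1000 kb. The intervals of the bins on either side of 100 kb did not meet, and those of neighbouring bins from 100 to 1000 kb did. In the vehicle list the unmatched share ran from 26.4% to 30.6% up to 200 kb and was 37.6% (31.6 to 44.0) at 200 to 500 kb. In the vehicle list the nearest member inside it lay 100.3 kb from Ralgapa2 and had a score of 662, and the nearest peak outside it lay 99.7 kb from Acsl4 and had a score of 594. In the TGFβ list they lay 100.1 kb from Fut8, at a score of 1000, and 99.997 kb from Irx4, at a score of 720. All 4 were unmatched.

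**Figure D1:**
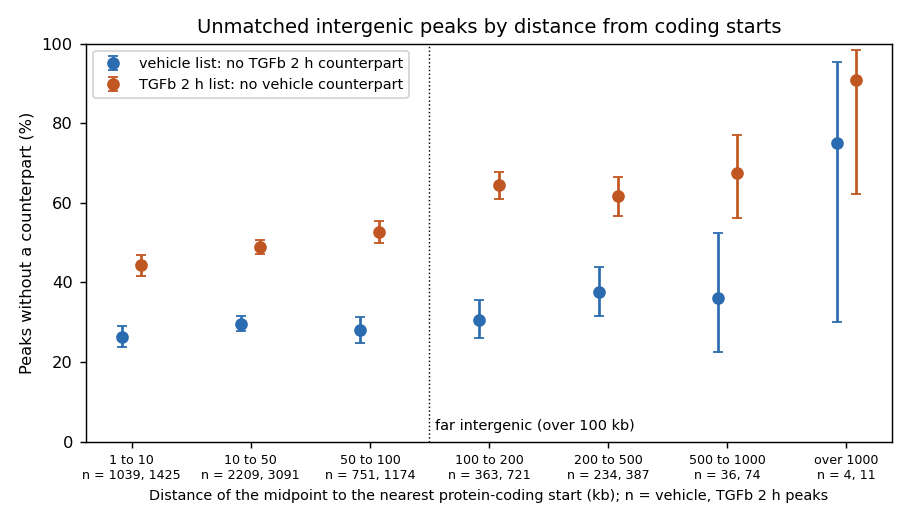
Share of intergenic peaks without a counterpart in the other list (%, y axis) by distance of the peak midpoint to the nearest protein-coding start (kb, x axis), for the vehicle list (blue) and the TGFβ 2 h list (orange), with Wilson 95% intervals as bars and numbers of peaks under each bin. The TGFβ share was 52.7% at 50 to 100 kb and 64.5% at 100 to 200 kb, while the vehicle share was 28.0% and 30.6% in these bins.

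Each deposited peak carries a whole-number score from 540 to a ceiling of 1000, whose meaning is not given in the sources used here. The score was used to order peaks within a list, and to set the lists side by side in shared pairs and at the ceiling. It may not mean the same in both lists. Over all peaks the ceiling was reached by 53.2% in the vehicle list and 44.3% in the TGFβ list. Unmatched members were the lower-scoring and narrower ones. The ceiling was reached by 4.65% of vehicle-only peaks and 7.72% of TGFβ-only peaks, against 28.9% of shared peaks in the vehicle list and 38.5% in the TGFβ list. The median TGFβ-only peak spanned 429 bp and the median vehicle-only peak 463 bp, while shared peaks spanned 625 bp in the vehicle list and 599 bp in the TGFβ list. Far intergenic peaks also reached the ceiling less often than near ones, with a difference of -7.73 points (-10.1 to -5.15) in the TGFβ list and -8.46 points (-11.8 to -4.86) in the vehicle list. From gene bodies they differed less, by -2.15 points (-4.51 to 0.385) and -0.06 points (-3.32 to 3.49), and both of these intervals included 0. Among far intergenic peaks at the ceiling, 59 were TGFβ-only and 10 vehicle-only, a ratio of 5.90 (2.99 to 12.9). The counts were 240 and 58 near genes and 248 and 38 in gene bodies, so at the ceiling the far ratio was not the highest.

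Peaks of like score were therefore compared. In the TGFβ list the far intergenic peaks had the higher unmatched share in each of 5 score bins, from 86.9% against 76.6% near genes in the lowest bin to 26.3% (21.0 to 32.5) against 15.9% (14.2 to 17.8) at the ceiling. When near peaks were given the score mix of the far peaks, the difference was 11.01 in place of 15.6 points, and the difference from gene bodies was 5.57 in place of 6.94 points. In the vehicle list the same step left differences of 0.39 and -0.09 points.

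Among 406 one-to-one pairs of shared far intergenic peaks, both members of the pair reached the ceiling in 79 pairs, the TGFβ peak alone in 84, the vehicle peak alone in 41 and neither in 202. The TGFβ peak alone reached it in 414 near pairs and the vehicle peak alone in 271. In gene bodies these counts were 461 and 213. The TGFβ peak was the narrower in 54.4% of far pairs (49.6 to 59.2), 65.3% of near pairs (63.5 to 67.1) and 60.9% of pairs in gene bodies (58.9 to 62.8). The width ratio of TGFβ over vehicle had a median of 0.973 in far pairs and 0.917 in near pairs.

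Far territory, the sequenced bases that meet the distance rule, spanned 779 Mb, and peaks in it were sparse. It held 0.817 vehicle peaks and 1.53 TGFβ peaks per Mb, against 5.21 and 7.42 per Mb in near territory. Shared peaks, whose counts are tied between the lists by the overlap rule, came to 0.542 and 0.550 per Mb, vehicle-only peaks to 0.276 and TGFβ-only peaks to 0.980 per Mb. The TGFβ density depended on the threshold, with 2.36 peaks per Mb beyond 50 kb and 0.877 beyond 200 kb.

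TGFβ-only members outnumbered vehicle-only members on each of the 20 chromosomes analysed. The TGFβ list had its highest density on chromosome 13, with 106 peaks in 35.3 Mb (78 TGFβ-only, against 18 vehicle-only), and its lowest on chromosome X, with 0.872 (39 and 5). The vehicle list had its highest density on chromosome 15, with 1.60 peaks per Mb, and its lowest on chromosome X, with 0.274. Leaving out chromosome X gave a ratio of TGFβ-only to vehicle-only peaks of 3.45, and leaving out chromosome 15 gave 3.70.

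**Figure D2:**
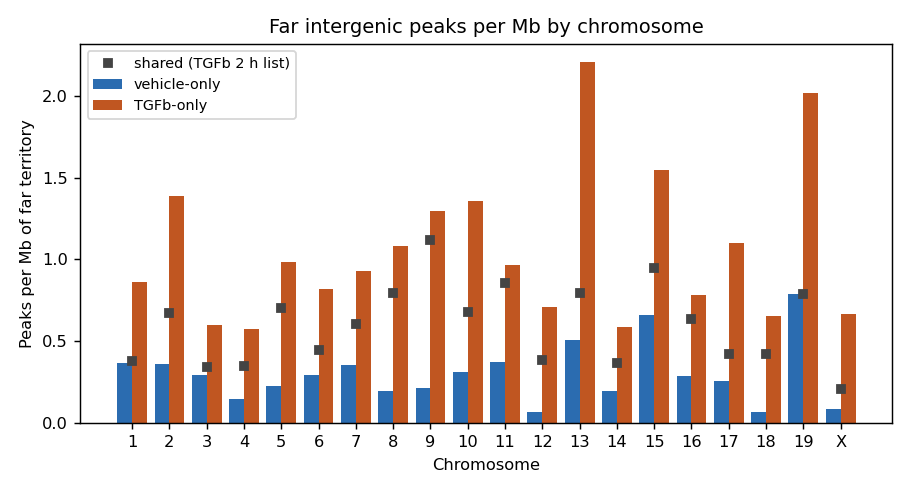
Far intergenic peaks per Mb of far territory (y axis) on each chromosome (x axis), with bars for vehicle-only (blue) and TGFβ-only (orange) peaks and squares for shared peaks of the TGFβ 2 h list. The orange bar is the taller on each of the 20 chromosomes, with the largest count, 78 TGFβ-only peaks, on chromosome 13.

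The members were richer in GC than far territory as a whole. The median GC content of the 200 bp around the midpoint was 50.5% in vehicle-only, 50.5% in shared (TGFβ list) and 49.0% in TGFβ-only members, against 39.0% over 155620 windows of the same length tiled across far territory. CpG-rich windows (GC of 50% or more and an observed over expected CpG ratio of 0.6 or more) made up 1.86% of vehicle-only, 5.36% of shared and 2.23% of TGFβ-only members. They made up 20.4% of shared near peaks and 86.3% of shared peaks at coding starts.

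AP-1 strings were less frequent in vehicle-only members than in the other classes. They stood in 222 of 764 TGFβ-only members (29.1%, 25.9 to 32.4), in 111 of 429 shared members of the TGFβ list (25.9%) and in 102 of 422 shared members of the vehicle list (24.2%), but in 32 of 215 vehicle-only members (14.9%, 10.7 to 20.3). TGFβ-only exceeded vehicle-only members by 14.2 points (7.97 to 19.5) and exceeded shared members by 3.18 points (-2.16 to 8.32). Windows of far territory held the string in 2.82%, flanks 2000 bp from the members in 3.34% to 4.78%, and all peaks of both lists in 12.4%.

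The share in TGFβ-only members was near that of TGFβ-only peaks elsewhere, with 27.1% near genes and 26.4% in gene bodies. Vehicle-only members differed more by place, since 14.9% of the far ones held an AP-1 string against 6.76% of the near ones, a difference of 8.12 points (3.68 to 13.7). Shared members exceeded shared near peaks by 5.81 points (1.62 to 10.4). Over whole peaks in place of 200 bp the shares were 47.3% (43.7 to 50.8) in TGFβ-only and 22.8% (17.7 to 28.8) in vehicle-only members. Over 100 bp they were 13.7% (11.5 to 16.4) and 9.30% (6.10 to 13.9), and these 2 intervals overlapped. A match is a description of the sequence and says nothing about which protein was bound.

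The AP-1 share went up with the score in the TGFβ list. At the ceiling 25 of 59 TGFβ-only members (42.4%) held the string, against 27.9% below it, a difference of 14.4 points (2.18 to 27.5). Shared members of the TGFβ list gave 33.9% at the ceiling and 20.8% below it, a difference of 13.1 points (4.50 to 21.8). In the vehicle list the order was the opposite for shared members, with 19.7% at the ceiling and 26.0% below it, although the interval of that difference included 0 (-14.4 to 2.86). None of the 10 vehicle-only members at the ceiling held the string (Wilson upper limit 27.8%).

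Shared pairs were then sorted by which peak reached the ceiling, although the ceiling may not mean the same in both lists. An AP-1 string in either window was found in 41 of 84 pairs in which the TGFβ peak alone did so (48.8%, 38.4 to 59.3) and in 7 of 41 in which the vehicle peak alone did so (17.1%, 8.53 to 31.3). The difference was 31.7 points (14.1 to 45.3). The pairs with both peaks at the ceiling gave 32.9% and those with neither gave 30.7%.

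AP-1 strings lay around the middle of the peaks. In TGFβ-only members there were 7.72 to 9.16 matches per 100 peaks in each 50 bp bin within 150 bp of the midpoint, and 1.05 to 1.83 in each bin from 300 to 500 bp on either side. Vehicle-only members had their highest bins on either side of the midpoint, at 4.65 and 6.51 matches per 100 peaks, with 10 and 14 matches behind them. More than 1 match within 200 bp was found in 25 TGFβ-only members, 10 shared members of the TGFβ list and 2 vehicle-only members.

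**Figure D3:**
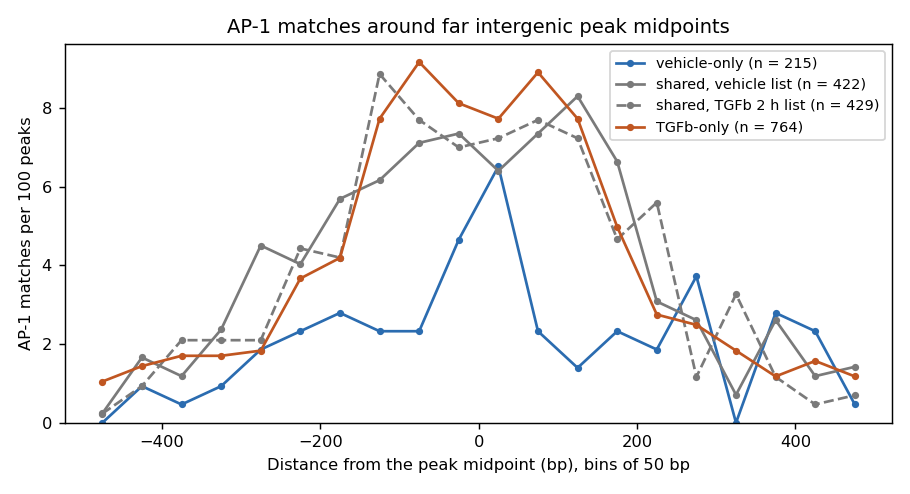
Exact AP-1 matches per 100 far intergenic peaks (y axis) in 50 bp bins by distance from the peak midpoint (bp, x axis), for vehicle-only (blue), shared (gray, solid for the vehicle list and dashed for the TGFβ 2 h list) and TGFβ-only (orange) peaks. The orange line reached 9.16 matches per 100 peaks and the blue line 6.51.

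The SMAD string CAGACA had another distribution. It was found in 26.8% of TGFβ-only and 26.0% of vehicle-only members, a difference of 0.79 points (-6.16 to 7.10). Shared members held it in 18.9% (TGFβ list) and 20.1% (vehicle list), and far territory windows in 14.6%. In flanks 2000 bp away the share was 17.7% for TGFβ-only and 16.7% for vehicle-only members. For shared members the flanks gave 18.5% (TGFβ list) and 18.8% (vehicle list). TGFβ-only peaks elsewhere held the string in 29.5% near genes and 29.9% in gene bodies. TGFβ-only members exceeded the shared members of the TGFβ list by 7.95 points (2.96 to 12.7). Vehicle-only members exceeded the same shared members by 7.17 points (0.453 to 14.3), so both unmatched classes lay above them. The Wilson intervals of vehicle-only members (20.6 to 32.3) and of the shared members of the vehicle list (16.6 to 24.2) overlapped. The SMAD palindrome GTCTAGAC was found in 4 TGFβ-only, 1 shared and 0 vehicle-only members, and in 0.132% of far territory windows.

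The CTCF consensus, the site of the main insulator protein, was rare. It was found in 5 TGFβ-only members (0.654%), 11 shared members of the TGFβ list (2.56%), 3 shared members of the vehicle list (0.711%) and 5 vehicle-only members (2.33%), against 0.0174% of far territory windows. Near vehicle-only peaks held it in 6.85%, a difference of far minus near of -4.52 points (-6.61 to -1.24). Among shared members of the TGFβ list the share was 1.40% over 100 bp and 0 of 165 at the ceiling (Wilson upper limit 2.28%). The shared counts differ between the lists because each window is centred on its own peak. No member held both an AP-1 and a CTCF match.

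The shares of the other strings follow. RUNX (TGTGGT) was found in 20.9% of vehicle-only, 21.9% of shared (TGFβ list) and 22.8% of TGFβ-only members, against 12.4% of far territory windows. TEAD (GGAATG) gave 15.8%, 19.1% and 15.7% against 11.2%. The E-box CAGGTG, to which ZEB and SNAIL repressors bind, gave 19.5%, 17.5% and 13.7% against 10.0%. AGATAA, the string of GATA factors, lay below the windows of far territory in every class, at 8.84%, 8.86% and 9.69% against 15.0%. ETS (CCGGAA) gave 1.86%, 3.26% and 2.75% against 1.08%, and 12.3% over all peaks. The forkhead string TGTTTAC gave 2.33%, 5.36% and 5.37% against 3.14%. The E-box CACGTG gave 2.79%, 3.03% and 2.62% against 1.43%. The CRE (TGACGTCA), C/EBP (TTGCGCAA), p53 (ACATGTCC), KLF/SP (GGGGCGGGG), POU (ATGCAAAT) and SOX (AACAATGG) strings each stood in at most 1.63% of any class and in 0.0103% to 2.18% of far territory windows, and the Grainyhead string AACCGGTT and the HNF1 site stood in no member and in 44 and 4 of the 155620 windows. POU and SOX also lay below the windows in these classes, POU at 0.465%, 1.63% and 0.393% against 2.18%. SOX gave 0%, 0.932% and 0.785% against 1.35%.

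**Figure D4:**
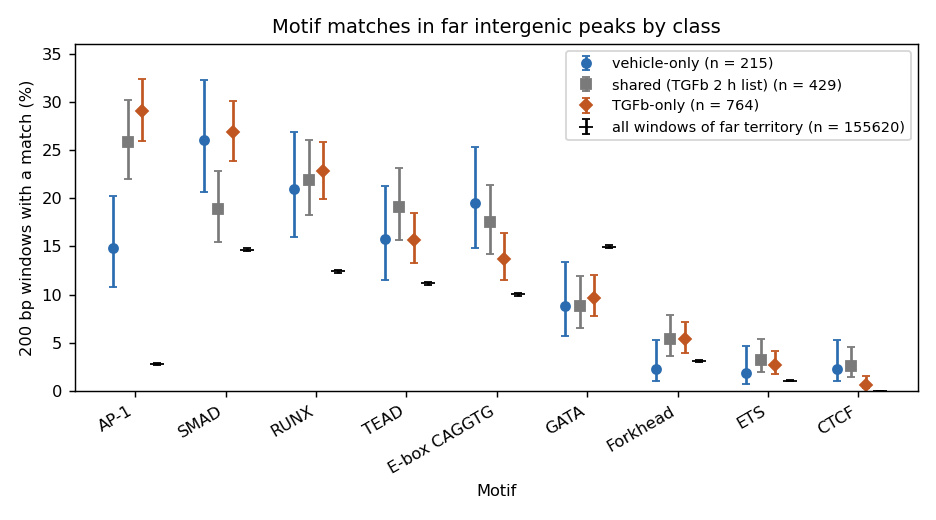
Share of 200 bp windows with an exact match (%, y axis) for 9 motifs (x axis) in vehicle-only (blue circles), shared (gray squares, TGFβ 2 h list) and TGFβ-only (orange diamonds) far intergenic peaks and in 155620 windows tiled over far territory (black dashes), with Wilson 95% intervals. AP-1 separates the vehicle-only peaks (14.9%) from the shared (25.9%) and TGFβ-only (29.1%) peaks, and GATA is the motif among these 9 for which all 3 classes lie below the windows.

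Few members sat at annotated noncoding genes. Peaks within 1 kb of the start of a long noncoding RNA made up 1.86% of vehicle-only, 3.26% of shared (TGFβ list) and 1.05% of TGFβ-only members. Those inside a long noncoding gene body made up 5.58%, 9.32% and 4.97%. Pvt1, the long noncoding neighbour of Myc, held 13 members, of which 5 in each list were shared, 2 were vehicle-only and 1 was TGFβ-only. 2610035D17Rik, beside Sox9, held 8 shared members of each list and no unmatched one. 2610307P16Rik, beside Sox4, held 4 TGFβ-only, 1 vehicle-only and 2 shared members of each list. These 3 genes were chosen as those with most members after the values were seen.

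Members were usually isolated. A peak of the same list lay within 10 kb of 15.8% of vehicle-only (11.5 to 21.3), 29.4% of shared (TGFβ list) and 26.7% of TGFβ-only members (23.7 to 29.9). Among shared members of the vehicle list it did so for 80 of 422 (18.96%). Each class was searched in its own list, and far territory held 0.817 vehicle and 1.53 TGFβ peaks per Mb. The part of list density in these shares was not tested. A peak of the other list lay within 1 kb of only 25 TGFβ-only members (3.27%) and 10 vehicle-only members (4.65%). Joining members of either list up to 10 kb apart gave 1190 clusters, of which 710 had 1 member. A shared site counts as a member of each list, so these 710 were all unmatched peaks and leave out lone shared sites. At least 3 TGFβ-only members stood in 8 clusters, and at least 3 vehicle-only members in 1, out of 764 and 215 such members.

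Of these 8 clusters, 5 are described, and each of them held 3 TGFβ-only members. The cluster between Gadd45g, a stress-induced growth arrest gene, and Diras2 spanned 13.9 kb of chromosome 13 (chr13:52058037-52071904), and its TGFβ-only peaks had scores of 889, 1000 and 1000, with a vehicle-only peak of score 726 beside them. The cluster between Cebpb, which encodes a bZIP transcription factor, and Ptpn1 lay at chr2:167642593-167654153, with scores of 621, 780 and 540 and an AP-1 string in 2 peaks. The cluster next to Tbl1xr1, a subunit of nuclear receptor corepressor complexes, lay at chr3:21848196-21861808, with scores of 698, 545 and 599. The clusters between Chd7 and Clvs1 (chr4:8995173-9008541) and between Plxna4 and Chchd3 (chr6:32647714-32656694) held no vehicle peak and an AP-1 string in 1 peak each.

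Of the highest-scoring TGFβ-only members, 4 are described here. Their peaks lay at chr15:67611799-67613061, 478 kb from Zfat, at chr13:28635911-28636803 in the Sox4 desert, at chr16:55555330-55555951 between Zpld1 and Nfkbiz, and at chr13:52120220-52121174, 179 kb from Gadd45g. Each reached the score of 1000. The nearest vehicle peak was 384 kb, 11.3 kb, 76.4 kb and 48.3 kb away.

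The highest-scoring vehicle-only members lay at chr15:37043918-37044579, between Zfp706 and Grhl2, at chr9:32747730-32748382, 244 kb from Ets1, and at chr14:46896721-46897360, between Ddhd1 and Gm15217. The distance to the nearest TGFβ peak was 5.498 kb, 134 kb and 0.15 kb, so the third lay just beside a peak of the other list. Grhl2 encodes a transcription factor that maintains the epithelial state. The shared members of highest score lay 153 kb from Ctnnb1 (β-catenin), 122 kb from Hif1a, in the Hmga2 desert, 106 kb from Tomm20 and in the Enc1 desert.

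The 3 members farthest from any coding start had scores below the ceiling. A vehicle-only peak lay 2140 kb from Cdh20 with a score of 750 and a width of 202 bp, a TGFβ-only peak 1952 kb from Diap2 with a score of 647, and a vehicle-only peak 1669 kb from Cdh9 with a score of 601. Of the 11 TGFβ peaks beyond 1000 kb, 10 were TGFβ-only, and 4 of those 10 held an AP-1 string, and of the 4 vehicle peaks 3 were vehicle-only. Of these 11, 4 TGFβ-only peaks lay 1122 to 1185 kb from Cited2, a group chosen after its values were seen.

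Members fell in 618 coding gene deserts. TGFβ-only members outnumbered vehicle-only ones in 391 deserts and were fewer in 89, with equal numbers in 138. TGFβ peaks alone were found in 242 deserts and vehicle peaks alone in 64. At least 10 members stood in 21 deserts, which together held 277 members.

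A shared site counts as a member of each list, so a ranking of deserts by members favours shared sites. The desert between Myc, a growth-promoting transcription factor, and Gsdmc (chr15:61821930-63607525) held 27 members, 9 shared in each list, 4 vehicle-only and 5 TGFβ-only. They lay 121 to 1499 kb from the Myc start. An AP-1 string stood in 4 of the 9 shared TGFβ peaks, in 1 of the 5 TGFβ-only peaks and in 0 of the 4 vehicle-only peaks. The desert between Sox9, a regulator of cartilage and epithelial stem cells, and Slc39a11 (chr11:112649075-113106166) held 24 members, 10 shared in each list, 2 vehicle-only and 2 TGFβ-only. Both of the TGFβ-only peaks, 219 and 229 kb from the Sox9 start, held an AP-1 string.

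The desert between Cdkn2b and Dmrta1 (chr4:88956942-89346126) held 16 members and no vehicle-only one. Cdkn2b encodes p15, an inhibitor of cyclin-dependent kinases that TGFβ is known to induce in epithelial cells. It had 6 shared peaks in each list, 138 to 234 kb upstream of the Cdkn2b start. Its 4 TGFβ-only peaks lay at -168, -177, -188 and -235 kb from that start (minus marks upstream), with scores of 599, 624, 650 and 861. Those at -188 and -235 kb ended less than 1 kb from a vehicle peak. The desert between Fut10 and Nrg1, which encodes a ligand of ERBB receptors, held 17 members (2 vehicle-only, 6 and 5 shared, 4 TGFβ-only), and the one between Serp2 and 9030625A04Rik held 14 (0, 5 and 5, 4).

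The deserts with most TGFβ-only members were chosen by that count and are described only. The deserts between Gm4906 and Bcor and between Egfl6 and Tmsb4x, both on chromosome X, each held 8 members, all TGFβ-only. The Chd7 to Clvs1 desert held 7, all TGFβ-only. The desert between Agtr1b and Tbl1xr1 held 7 TGFβ-only, 2 vehicle-only and 1 shared peak in each list, and the Gadd45g to Diras2 desert 7 TGFβ-only, 2 vehicle-only and no shared peak.

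**Figure D5:**
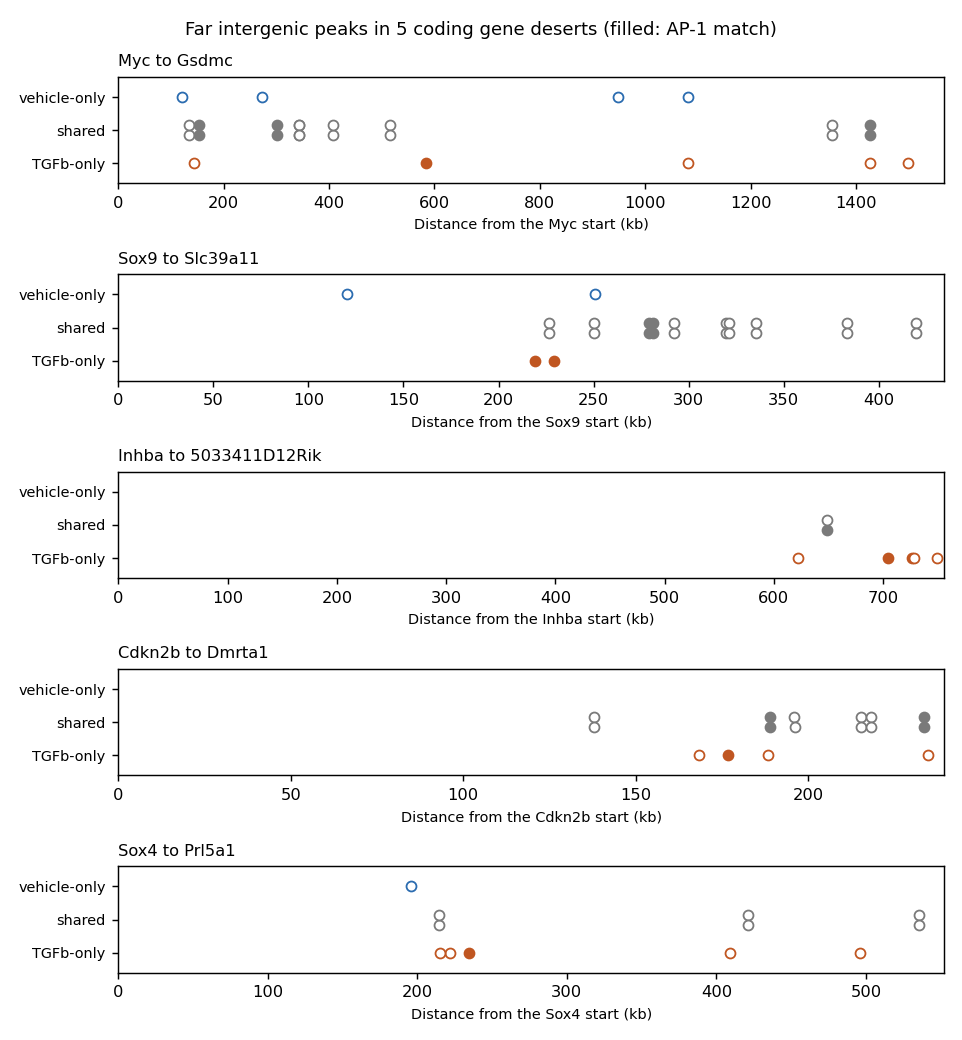
Far intergenic peaks in 5 coding gene deserts by distance from the start of the bounding gene named first (kb, x axis), in rows for vehicle-only (blue), shared (gray, vehicle list above and TGFβ 2 h list below) and TGFβ-only (orange) peaks; filled circles hold an AP-1 match in the 200 bp around the midpoint. The Sox9 desert holds 10 shared pairs and 4 unmatched peaks, and the Inhba desert holds 5 TGFβ-only peaks and 1 shared pair.

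Deserts bounded by genes of TGFβ signalling held 37 members, for 9 of the 19 genes listed. They comprised 3 vehicle-only, 10 shared in each list and 14 TGFβ-only peaks, so that 58.3% of their TGFβ peaks were unmatched, against 64.0% of all far intergenic TGFβ peaks. The desert of Inhba, which encodes the βA subunit of activins, had 5 TGFβ-only peaks, 622, 704, 727, 728 and 750 kb downstream of the Inhba start with scores of 995, 560, 1000, 608 and 774. Its shared pair, at 648 kb, had a score of 851 in the vehicle list and 1000 in the TGFβ list. Bmp2, a ligand of the same superfamily, had 3 TGFβ-only peaks, 120, 120 and 217 kb from its start, and 1 shared pair. The ligand gene Tgfb2 had 3 TGFβ-only and 2 vehicle-only peaks with 3 shared pairs, and the receptor gene Tgfbr2 had 1 TGFβ-only peak with 2 shared pairs. Bmp4 went the other way, with 1 vehicle-only peak, 2 shared pairs and no TGFβ-only peak.

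Of 12 AP-1 family genes, Jun and Maf bounded a desert with members, 7 in all. Upstream of Jun a shared peak at the ceiling in both lists lay 109 kb from the start, and TGFβ-only peaks lay at 136 and 141 kb with scores of 557 and 598. Maf had 1 shared pair and 1 TGFβ-only peak. The desert flanks of the other 10 genes, Junb, Fos and Fosl1 among them, held no member.

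For 4 of the 11 EMT transcription factors a desert held members, 46 in all, of which 4 were vehicle-only, 16 in each list shared and 10 TGFβ-only, so that 38.5% of their TGFβ peaks were unmatched. Sox9 accounted for 24 of these members and for 12 of the 26 TGFβ peaks, of which 2 were unmatched, so the share rests largely on this gene. Sox4, a TGFβ-responsive regulator of EMT, had 5 TGFβ-only peaks 215, 222, 235, 409 and 496 kb from its start, with scores of 549, 618, 955, 1000 and 967 (the first less than 1 kb from a vehicle peak), beside 3 shared pairs and 1 vehicle-only peak. Zeb2, a repressor of epithelial genes, had 3 TGFβ-only peaks, 2 shared pairs and 1 vehicle-only peak in its desert. Zeb1 had 1 shared pair.

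Epithelial and developmental factors bounded deserts with 95 members, for 18 of the 32 genes, with 16 vehicle-only, 26 shared in each list and 27 TGFβ-only peaks (50.9% of TGFβ peaks unmatched). Myc, counted over the deserts on both of its sides, had 36 of these members. Klf4, an epithelial differentiation factor, had 13, of which 5 in each list were shared, and Klf5 had 6, of which 3 were TGFβ-only. In all 4 lists the unmatched share of TGFβ peaks was below that of all far intergenic peaks, and no test was made of these counts.

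The label of the cells was set against promoter peaks of marker genes. A peak within 1 kb of a start was found in the vehicle list for 5 of 10 epithelial markers (Cdh1, Krt8, Krt18, Krt19 and Grhl2) and in the TGFβ list for the same ones without Grhl2, and was absent for Epcam, Krt7, Cldn4, Cldn7 and Esrp1. None of 6 blood markers had one, and Snap25 of 5 neuronal and Actn3 of 5 muscle markers had one in both lists. Over all coding genes 45.8% had a promoter peak in the vehicle list and 46.4% in the TGFβ list.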

How the data were processed

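NMuMG chromatin was digested with DNaseI and sequenced, with 1 peak list for vehicle and 1 for TGFβ at 2 h. Per the labels and the study's methods, reads of a condition were merged and aligned to mm9, and the submitters' processing notes name MACS2 2.1.2. The methods say that the ATAC-seq pipeline was followed with options for DNaseI. For ATAC-seq it kept peaks reproducible between replicates by the irreproducible discovery rate, and whether such a filter made these lists, and so what a score or a missing call means, is not given in the sources used here. The peak files hold no read depth or signal. Read totals stated by the study, higher for vehicle than for TGFβ, were not used here. The authors deposited each peak with a whole-number score from 540 to 1000. An interval can stand in several rows of a deposited list, always with the same score, and the sources used here do not say what the repeated rows mean.

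Identical intervals were collapsed (70449 rows to 17784 vehicle peaks, 68542 rows to 22600 TGFβ peaks). Peaks were placed by their midpoint against GENCODE M1 coding genes, and classed by an overlap of 1 bp. Territory excluded unsequenced bases. Motifs were exact strings, searched on both strands in the 200 bp around the midpoint, in windows every 5 kb of far territory and in flanks 2000 bp away. AP-1 was the only motif with 2 spellings, which are reverse complements, and no fixed string contains another. The CTCF and HNF1 sites were searched as consensus sequences, and a CTCF match can contain the E-box CAGGTG.

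Named regions were the 5 TGFβ-only, 3 vehicle-only and 5 shared members of highest score (ties by rows, then width), the 3 farthest from a coding start, and those next to the threshold. Of the TGFβ-only regions of highest score, 1 is not reported here. Named deserts were the 5 with most members and the 5 with most TGFβ-only members, and named clusters the 5 with most TGFβ-only members. The members, gene lists, markers and motifs were chosen with earlier results of these data known. All listed genes were found in the annotation, 3 of them under older symbols (Sfpi1, Tcfap2a, Tcfap2c) through a RefSeq gene table. Scripts ran on Python 3.11.15 with numpy 2.4.6, scipy 1.17.1 and matplotlib 3.10.9 and were tested on simulated data. With 1 list a condition, no p-value was computed, and the alternatives were the distance threshold, overlap, gene biotypes, peak width and gap, score, list length, motif window and chromosomes.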

Additional observations from a re-analysis of the deposited data

How the results depend on the processing

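No paired analysis was possible because a single list stands for either condition. Of 75 alternative values, 48 moved by less than their counting interval and 27 moved by more. The ratio of TGFβ-only to vehicle-only peaks and the far minus near difference are the values that have a direction, and neither turned. Leaving out chromosome X or 15 and the score-mix setting were chosen after seeing the data. The ratio of TGFβ-only to vehicle-only peaks was 2.88 with a threshold of 200 kb, 5.90 among peaks at the score ceiling and 1.32 at equal list length. The unmatched share of TGFβ peaks was 58.4% at 50 kb, 67.2% with a reciprocal overlap of 50%, 26.3% at the ceiling and 50.1% at equal length. The unmatched share of vehicle peaks was 38.0% at 200 kb, 38.6% with reciprocal overlap, 7.58% at the ceiling and 43.3% at equal length. The difference between far and near TGFβ peaks was 11.04 points at 50 kb, 10.4 at the ceiling, 12.2 at equal length and 11.01 at the far score mix. The AP-1 share of TGFβ-only peaks was 42.4% at the ceiling, 33.8% at equal length, 47.3% over whole peaks and 13.7% over 100 bp, and that of vehicle-only peaks was 0 of 10 at the ceiling, 22.8% over whole peaks and 9.30% over 100 bp. The CTCF share of shared peaks was 0 of 165 at the ceiling and 1.40% over 100 bp. TGFβ peaks per Mb came to 2.36 at 50 kb, 0.877 at 200 kb and 1.29 with genes of every biotype. The cause of these shifts was not tested. A peak called in only 1 list can have signal in the other condition below the calling threshold, and with 1 list a condition the spread between cultures cannot be set beside any difference.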
